A study of Mus musculus with 2 samples.

Results

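Chromatin accessibility of the monoamine and acetylcholine receptor genes was examined in DNase-seq data from mouse cerebral cortex. The 53 genes are the protein-coding genes of GENCODE M21 whose symbols begin with Htr (serotonin receptors), Drd (dopamine), Adra and Adrb (adrenergic), Chrm (muscarinic acetylcholine) or Hrh (histamine) followed by a digit, or with Chrn (nicotinic acetylcholine) followed by a letter. They are 53 of 21938 protein-coding genes and fall into 7 families: 14 Htr, 5 Drd, 6 Adra, 3 Adrb, 5 Chrm, 4 Hrh and 16 Chrn genes. The symbols alone decided membership, and no measured value entered the rule, although earlier results of these data were known when it was chosen.

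The tissue was left cerebral cortex, taken from 2 mice, both B6CASTF1/J females aged 14 days, and the labels name no treatment. B6CASTF1/J mice carry a C57BL/6J and a CAST/EiJ copy of each chromosome. Each animal gave 1 library, numbered as biological replicate 1 or 2, and both animals stand under 1 donor record. The pair forms 1 group, so there is no contrast between conditions, and the values of both libraries are given in place of a test. The tissue is bulk cortex, in which fewer cells of a type and less accessibility per cell cannot be told apart.

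Serotonin, dopamine, noradrenaline and histamine reach the cortex mainly from brainstem, midbrain and hypothalamic neurons, and acetylcholine mainly from the basal forebrain. Cortical cells receive these transmitters through receptors of separate kinds. Most are G protein-coupled receptors that act through Gs, which raises cyclic AMP, Gi, which lowers it, or Gq, which activates phospholipase C. The nicotinic receptors and the serotonin receptor built from Htr3a and Htr3b products are instead ligand-gated ion channels, assembled from several subunits.

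Hypersensitive sites for DNase I (DHSs) are the peaks of cleavage that the authors called in a library, and the signal of a DHS is the authors' value for its peak. The unit and the sequencing depth behind it are unknown, so 0 means that no peak was called. A promoter was taken as 1 kb on either side of any annotated transcription start site (TSS), and its signal as the highest peak in it. A footprint is a short stretch that the authors called as protected from cleavage.

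Replicate 1 had 90059 peaks and 199455 footprints, and replicate 2 had 175597 peaks and 416840 footprints. Peaks of both libraries met in 78165 shared DHSs. Promoters of 8 of 8 cortical glutamatergic markers had a peak in both libraries, with mean signals of 0.855 to 2.80. The same held for 5 of 6 striatal projection, 2 of 4 thalamic, 3 of 4 astrocyte, 1 of 4 oligodendrocyte, 1 of 4 microglia, 0 of 4 endothelial and 1 of 4 skeletal muscle markers. Of the markers of cells that make the transmitters, 4 of 8 monoaminergic and 1 of 5 cholinergic genes had such a peak, and Th, Slc6a3, Fev, Chat and Slc18a3 had none in either library.

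Promoters of 32 of the 53 receptor genes had a DHS in both libraries (60.4%), beside 62.7% of all protein-coding genes. Replicate 1 had a promoter peak at 35 receptor genes (66.0%), beside 63.6% of all protein-coding genes, and replicate 2 at 38 (71.7%), beside 67.8%. The peaks of both libraries overlapped at 31 of the 32. At the last, Htr1f, the peak of replicate 1 lay 36 bp downstream of the start and that of replicate 2 lay 962 bp upstream. The peaks were low. The median promoter signal of the 32 was 0.805 in replicate 1 and 0.729 in replicate 2, beside 2.52 and 2.13 for the 13757 accessible protein-coding genes. Of the 32, 31 lay below the median of the accessible protein-coding genes and 21 in the lowest 25% of them. The exception was Chrnb1. The share of receptor genes depended on the peaks admitted. With the smaller, stricter peak list the count was 23 (43.4%), beside 57.2% of all protein-coding genes, and the median signal 1.19, beside 2.58 for all accessible genes. With equal numbers of the highest peaks it was 27 (50.9%), beside 59.6%, and with 500 bp on either side of the start 26 (49.1%), beside 60.8%.

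**Figure D1:**
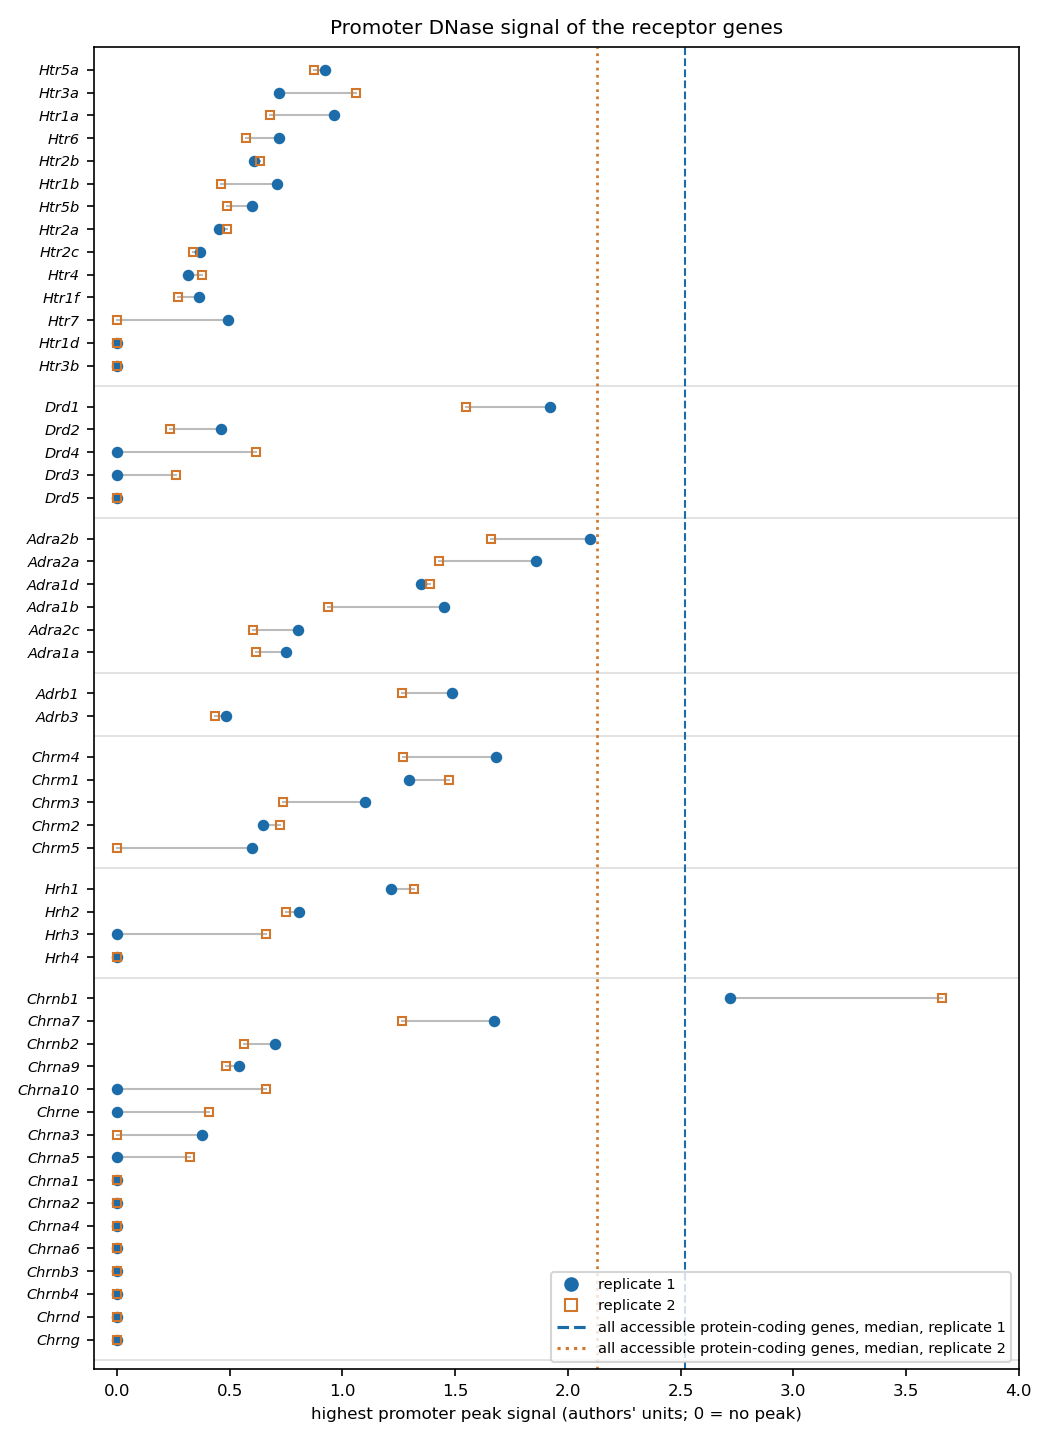
Highest promoter peak signal (x axis, authors' units; 0 means no peak) of the receptor genes reported here (rows, grouped by family and ordered by mean) in replicate 1 (filled circles) and replicate 2 (open squares). The vertical lines are the medians of the accessible protein-coding genes, 2.52 in replicate 1 and 2.13 in replicate 2, and Chrnb1 is the receptor gene to the right of both.

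The counts were uneven over the families. All 6 Adra and all 3 Adrb genes had a promoter DHS in both libraries, as did 4 of 5 Chrm, 11 of 14 Htr, 2 of 4 Hrh, 2 of 5 Drd and 4 of 16 Chrn genes. By mechanism, 27 of the 35 G protein-coupled receptor genes had one (77.1%), beside 62.7% of all protein-coding genes. Of the 18 ion channel genes, which are the Chrn genes with Htr3a and Htr3b, 5 had one (27.8%). By G protein, the count was 9 of 10 Gq-coupled, 7 of 9 Gs-coupled and 11 of 16 Gi-coupled receptor genes, a grouping by textbook coupling made after the counts were known. With the stricter peak list, 9 of these genes were lost: Chrna9 and the G protein-coupled Drd2, Hrh2, Htr1f, Htr2a, Htr2c, Htr4, Htr5b and Htr6. With 500 bp on either side of the start, 6 genes were lost: Adra2b, Adra2c, Adrb3, Chrm4, Chrna9 and Htr1f. The families are small, and no test was made between them.

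**Figure D2:**
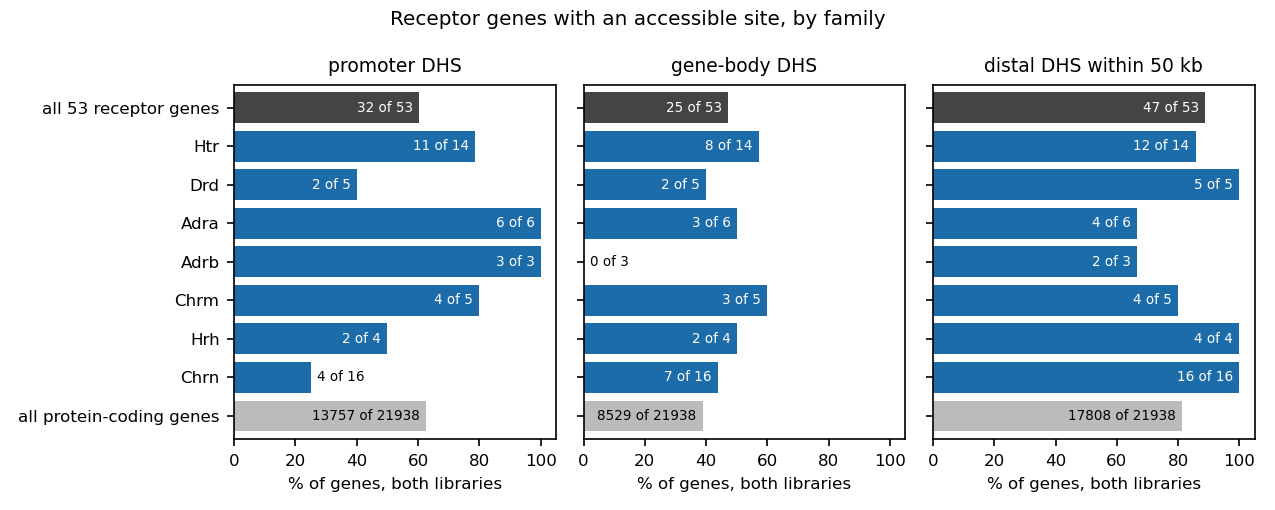
Share of genes (x axis, %) with a promoter DHS in both libraries, a shared gene-body DHS or a shared distal DHS within 50 kb, for the 53 receptor genes, each family and all protein-coding genes (bars start at 0; counts are printed in them). Adra and Adrb genes have a promoter DHS in 6 of 6 and 3 of 3 cases, Chrn genes in 4 of 16, while all 16 Chrn genes have a distal DHS.

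The sequence of the highest shared promoter DHS of each family is shown, since these sites carry the promoter values, followed by the highest sites outside promoters. All are mm10 reference sequence (C57BL/6J), read 5′ to 3′ on the strand of the gene, and the CAST/EiJ copy that these hybrids also carry can differ. Annotated UTR bases are left out, and at most 300 bases are shown. Capitals mark bases that lie in a footprint of both libraries. The Htr3a site is chr9:48910861-48910965 (minus strand), of which 67 bases are coding, and Drd1 is chr13:54055706-54055860 (minus). Adra2b is chr2:127362521-127362700 (plus), upstream of the gene, and Adrb1 is chr19:56721841-56722140 (plus), also upstream. Chrm4 is chr2:91927941-91928180 (plus), wholly coding, Hrh1 is chr6:114398761-114398960 (plus) and Chrnb1 is chr11:69795361-69795600 (minus). Outside promoters, the Chrna1 site at chr2:73572581-73572820 (minus) is intronic and the Chrna4 site at chr2:181072221-181072440 (minus) lies upstream of the gene.
Htr3a: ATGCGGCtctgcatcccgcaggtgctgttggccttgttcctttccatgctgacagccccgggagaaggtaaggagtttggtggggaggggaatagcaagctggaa
Drd1: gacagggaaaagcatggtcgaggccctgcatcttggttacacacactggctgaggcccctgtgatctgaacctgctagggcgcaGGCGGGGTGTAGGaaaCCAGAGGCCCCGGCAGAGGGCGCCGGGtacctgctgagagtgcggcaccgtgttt
Adra2b: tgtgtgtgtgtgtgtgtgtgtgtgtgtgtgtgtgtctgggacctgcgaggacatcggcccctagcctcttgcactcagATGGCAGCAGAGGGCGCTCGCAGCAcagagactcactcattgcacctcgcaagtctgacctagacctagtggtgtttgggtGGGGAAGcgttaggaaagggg
Adrb1: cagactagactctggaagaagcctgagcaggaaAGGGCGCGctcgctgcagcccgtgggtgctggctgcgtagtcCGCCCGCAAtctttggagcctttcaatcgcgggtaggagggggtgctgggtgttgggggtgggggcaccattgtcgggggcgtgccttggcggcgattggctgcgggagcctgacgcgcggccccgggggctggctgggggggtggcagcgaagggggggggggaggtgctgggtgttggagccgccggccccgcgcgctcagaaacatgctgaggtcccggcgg
Chrm4: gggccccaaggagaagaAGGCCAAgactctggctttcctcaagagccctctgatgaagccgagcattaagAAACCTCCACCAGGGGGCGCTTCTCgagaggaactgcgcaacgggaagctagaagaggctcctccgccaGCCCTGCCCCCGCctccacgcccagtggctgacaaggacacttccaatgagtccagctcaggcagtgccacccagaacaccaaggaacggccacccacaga
Hrh1: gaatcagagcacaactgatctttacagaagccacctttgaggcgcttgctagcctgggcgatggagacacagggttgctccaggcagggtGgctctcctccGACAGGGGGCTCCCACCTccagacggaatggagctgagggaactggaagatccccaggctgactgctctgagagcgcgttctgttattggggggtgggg
Chrnb1: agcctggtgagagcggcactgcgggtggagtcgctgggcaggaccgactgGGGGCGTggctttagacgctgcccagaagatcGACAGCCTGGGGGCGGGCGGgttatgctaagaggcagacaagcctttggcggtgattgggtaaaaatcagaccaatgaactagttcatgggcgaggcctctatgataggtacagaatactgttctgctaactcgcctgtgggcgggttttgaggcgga
Chrna1 intron: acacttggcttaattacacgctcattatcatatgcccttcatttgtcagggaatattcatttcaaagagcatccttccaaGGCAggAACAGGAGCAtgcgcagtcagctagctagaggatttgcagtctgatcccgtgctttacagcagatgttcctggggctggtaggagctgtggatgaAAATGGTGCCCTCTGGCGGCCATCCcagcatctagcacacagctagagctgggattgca
Chrna4 upstream: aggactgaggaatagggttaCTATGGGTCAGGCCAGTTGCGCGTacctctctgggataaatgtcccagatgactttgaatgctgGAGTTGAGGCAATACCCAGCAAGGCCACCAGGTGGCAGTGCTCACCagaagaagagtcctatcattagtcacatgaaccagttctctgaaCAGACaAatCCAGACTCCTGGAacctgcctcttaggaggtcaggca

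Among the serotonin receptor genes, promoter signals were low throughout, with means of 0.315 to 0.900 in the 11 accessible genes. Htr5a, a Gi-coupled receptor, was highest, with 0.925 in replicate 1 and 0.876 in replicate 2. Its peaks formed a pair of sites, 148 bp upstream and 752 bp downstream of the start, that held 11 footprints in each library; the upstream site was the higher in replicate 1 and the downstream site in replicate 2. Htr3a, the subunit required for the serotonin-gated channel, had 0.717 and 1.06 at a DHS over its start. Its partner Htr3b, which lies beside it on chromosome 9, had no promoter peak. Htr1a, the Gi-coupled autoreceptor that is also found on cortical pyramidal cells, had 0.963 and 0.677 at a site 848 bp upstream of its start.

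Htr2a and Htr2c, the Gq-coupled receptors bound by classical hallucinogens, had promoter signals of 0.455 and 0.488 for Htr2a and of 0.370 and 0.338 for Htr2c in replicates 1 and 2. Both values of Htr2c, which lies on chromosome X, lay below both of Htr2a. By mean signal they were above only 1.52% (Htr2c) and 4.20% (Htr2a) of the accessible protein-coding genes. Neither gene kept a promoter DHS in both libraries with the stricter peak list. The highest promoter peak of Htr1b, another Gi-coupled receptor (0.709 and 0.463), lay nearer to D430036J16Rik, a non-coding gene, than to Htr1b, at 127 and 384 bp from their starts. Htr7, a Gs-coupled receptor, had a peak of 0.493 in replicate 1 and none in replicate 2. Htr1d, a Gi-coupled receptor, had no promoter peak in either library.

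The dopamine receptor genes were uneven. Drd1, the main Gs-coupled dopamine receptor of forebrain neurons, had 1.92 in replicate 1 and 1.55 in replicate 2 at its start, with 3 and 8 promoter footprints. Drd2, its Gi-coupled counterpart, had 0.462 and 0.234, and both values lay below both values of Drd1. The Gi-coupled Drd4 had 2 promoter sites in replicate 2, the higher at 0.617, and Drd3 had 1 of 0.264, while replicate 1 had none at either gene. Drd5, Gs-coupled like Drd1, had no promoter peak in either library, although 4 distal DHSs lay within 50 kb of its start.

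The striatum lies under the cortex, and striatal projection neurons express Drd1 and Drd2 strongly. Markers of these neurons had summed promoter signals of 7.49 in replicate 1 and 7.81 in replicate 2. Of the 6, Adora2a, which marks the Drd2-expressing neurons, had a peak in replicate 2 only (0.388). The part of such cells in the Drd1 and Drd2 values was not tested.

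Adra and Adrb were the families in which every gene had a promoter DHS in both libraries, with the window of 1 kb. The window of 500 bp lost Adra2b, Adra2c and Adrb3. Equal numbers of the highest peaks lost Adrb3, and the most 5′ start alone lost Adra1b and Adrb3. Adra2b, a Gi-coupled receptor, had 2.10 in replicate 1 and 1.66 in replicate 2 at a site 597 bp upstream of its start. Adra2a, the Gi-coupled receptor through which clonidine and guanfacine act in the prefrontal cortex, had 1.86 and 1.43 at its highest site, with 7 and 17 promoter footprints. The third member of this class, Adra2c, was lower, with 0.801 and 0.602. All 3 Adra2 genes are short, and the highest sites of Adra2a and Adra2c lay within the gene. The Adra2c site was 602 bp downstream of the start. The Adra2a site was 430 bp downstream of the first of its 2 annotated starts. It lay upstream of the second, which is 1109 bp downstream of the first and 1 bp from the RefSeq start.

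The Gq-coupled Adra1 genes were spread over a like range. Adra1d had 1.35 in replicate 1 and 1.39 in replicate 2 at a site 568 bp upstream of its start. Adra1b had 1.45 and 0.936, but at the second of its annotated starts, 64878 bp downstream of the most 5′ start, where neither library had a peak. Adra1a, with 6 annotated starts, had 0.748 and 0.617.

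Among the Gs-coupled β-adrenergic receptor genes, Adrb1, the main β receptor of cortical neurons, had 1.49 in replicate 1 and 1.26 in replicate 2, with 6 and 16 promoter footprints. Adrb3, known from brown fat, had 0.485 and 0.433 at its 2 most downstream starts, 22033 and 22122 bp from the most 5′ start, where no peak was called.

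Of the muscarinic genes, Chrm4, a Gi-coupled receptor, had 1.68 in replicate 1 and 1.27 in replicate 2. That site lies 812 bp into a gene model of 1.44 kb with 1 exon, and all 240 bases of it are coding. The RefSeq start of Chrm4 lies 5060 bp upstream of the GENCODE start, and a shared DHS 258 bp upstream of the RefSeq start had 1.34 and 1.42. Chrm4 is 1 of 40 receptor genes in the RefSeq promoter table and was the 1 gene among them whose RefSeq start lay over 1 kb from every GENCODE start. Chrm1, the Gq-coupled receptor abundant in cortical pyramidal cells, had 1.29 and 1.47 from a run of adjacent sites at its starts, with 5 and 10 footprints. Chrm3 (1.10 and 0.737), also Gq-coupled, and the Gi-coupled Chrm2 (0.647 and 0.722) were lower. Chrm5, Gq-coupled, had a peak of 0.601 in replicate 1 and none in replicate 2, 967 bp upstream of its start.

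Of the histamine receptor genes, Hrh1, the Gq-coupled target of sedating antihistamines, had 1.22 in replicate 1 and 1.32 in replicate 2, at a site 775 bp downstream of the second of its 5 annotated starts. Hrh2, Gs-coupled, had 0.809 and 0.752 over its start. Hrh3, the Gi-coupled receptor that restrains histamine release, had peaks in replicate 2 only, the highest at 0.662. Hrh4, a Gi-coupled receptor best known from blood cells, had none.

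The nicotinic genes had the fewest accessible promoters. Chrnb1, the β subunit of the muscle receptor, had 2.72 in replicate 1 and 3.66 in replicate 2, the highest of all 53 receptor genes and above 64.5% of the accessible protein-coding genes. The other 4 muscle-type subunit genes had no promoter DHS in both libraries: Chrna1, Chrnd and Chrng had none, and Chrne had a peak of 0.408 in replicate 2 only, at starts 3 and 4 counted from the 5′ end, 3519 and 3543 bp downstream of the most 5′ start. Of the skeletal muscle markers, Acta1, Myog and Myh1 had no promoter peak in either library, and Ckm had 1.90 and 1.28.

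Among the neuronal subunit genes, Chrna7, which forms receptors of its subunit alone, had 1.67 in replicate 1 and 1.26 in replicate 2. Chrnb2, the β subunit of the main high-affinity receptor in brain, had 0.701 and 0.563. Its usual partner Chrna4 had no promoter peak in either library. Chrna9, known from cochlear hair cells, had 0.539 and 0.483, at start 6, 32203 bp downstream of the most 5′ start. The partner of Chrna9 in those cells, Chrna10, had 0.662 in replicate 2 only.

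Of the nicotinic genes, 7 lie side by side with another: Chrna5, Chrna3 and Chrnb4 on chromosome 9, Chrna6 and Chrnb3 on chromosome 8, and Chrnd and Chrng on chromosome 1. None of the 7 had a promoter DHS in both libraries. Chrna3 had a peak of 0.378 in replicate 1 only, and Chrna5 had 0.324 in replicate 2 only. The other 5 had none. Of the 9 nicotinic genes that stand alone, 4 had a promoter DHS in both libraries and 3 had none in either. Over all protein-coding genes the shares were 62.7% and 31.3%. This split was not planned, the groups are small, and no test was made between them.

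In all, 12 receptor genes had no promoter peak in either library (22.6%), beside 31.3% of all protein-coding genes, and 8 of them are Chrn genes. The 12 are Htr1d, Htr3b, Drd5, Hrh4, Chrna1, Chrna2, Chrna4, Chrna6, Chrnb3, Chrnb4, Chrnd and Chrng. The authors' segments of the genome with a false discovery rate of at most 0.05 gave a more lenient readout. None of the 12 had such a segment at its promoter in both libraries and 1 had one in either, beside 33 (0.480%) and 250 (3.64%) of the 6874 protein-coding genes without a promoter peak. The 1 was Chrng, with 12 bp of segment in replicate 2 and a lowest q-value of 0.0389. Peaks in replicate 2 only were called at 6 receptor genes, beside 5.04% of all protein-coding genes, and peaks in replicate 1 only at 3 (Htr7, Chrm5 and Chrna3), beside 0.916%.

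Promoter footprints followed the peaks in which they lay. They were present in both libraries at 30 receptor genes (56.6%), beside 60.3% of all protein-coding genes. The accessible genes had a median of 3 promoter footprints in replicate 1 and 4 in replicate 2, beside 5 and 6 for all accessible protein-coding genes. The highest numbers were 11 and 11 at Htr5a, 7 and 17 at Adra2a, and 6 and 16 at Adrb1. Chrna9 and Htr1f were the accessible genes without a promoter footprint in both libraries, since replicate 1 had none at either.

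CpG content is a strong correlate of promoter accessibility in mammals, so the genes were grouped by their CpG ratio, observed over expected, in the 500 bp on either side of the most 5′ start. The groups were set at 0.303 and 0.708, which divide all protein-coding genes into equal parts. Of the 19 receptor genes in the low group, 6 had a promoter DHS in both libraries (31.6%), beside 19.0% of all protein-coding genes in it. The count was 18 of 23 in the middle group (78.3%), beside 74.0%. It was 8 of 11 in the high group (72.7%), beside 95.1%, the 3 exceptions being Htr7, Drd5 and Hrh3.

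Within each group the accessible receptor genes had lower signals than accessible genes at large. The median of the mean signal was 1.32 in the high group, beside 3.02 for all accessible protein-coding genes in it. It was 0.683 in the middle group, beside 1.86, and 0.795 in the low group, beside 1.22. Of the 16 Chrn genes, 10 were in the low group, and their median CpG ratio was 0.231, beside 0.418 for all 53 receptor genes and 0.552 for all protein-coding genes. In the low group, 1 of 10 Chrn genes was accessible in both libraries (Chrna9), and its peak lies at start 6, not at the most 5′ start where the CpG ratio was taken. The other accessible genes of that group were Adra2c, Chrm1, Chrm4, Htr2b and Htr3a. The peaks of Adra1b and Adrb3, in the middle group, also lie at other starts. With accessibility taken at the most 5′ start alone, a choice made after the data were seen, the count was 5 of 19 in the low group (26.3%), beside 9.48% of all protein-coding genes in it, and included 0 of the 10 Chrn genes. It was 16 of 23 in the middle group (69.6%), beside 69.2%, and 8 of 11 in the high group (72.7%), beside 94.2%.

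**Figure D3:**
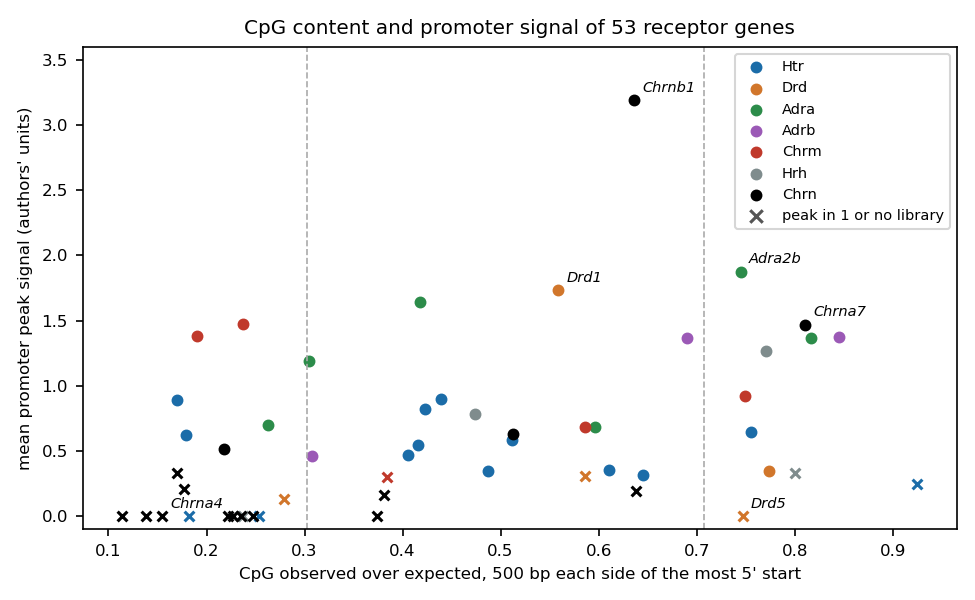
CpG observed over expected around the most 5′ start (x axis, no unit) against the mean promoter peak signal of both libraries (y axis, authors' units) for the 53 receptor genes, coloured by family; crosses are genes with a peak in 1 or no library. The dashed lines at 0.303 and 0.708 bound the middle group, and 10 of the 16 Chrn genes lie to the left of it.

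By the midpoints of the sites, 25 receptor genes had at least 1 shared DHS in the gene body, over 1 kb from every start of the gene (47.2%), beside 38.9% of all protein-coding genes. They held 64 such sites in all, 55 in introns and 9 in exons, or 2.52 per 100 kb of gene, beside 2.59 for all protein-coding genes. Chrm3, at 485 kb the longest of the 53, had 8 gene-body DHSs, and Chrna9 also had 8 in 42.4 kb. All 8 of Chrna9 lay upstream of its RefSeq start, which is start 6 of the GENCODE model. Sites among them lay 297, 406 and 884 bp from a start of another gene, 4930480C01Rik. Adra1a had 5 and Htr2a had 4. No other receptor gene had more than 3, and the 3 Adrb genes had none. Of the 64 sites, 3 reach into a promoter window and are also counted as promoter DHSs, 1 each at Htr1a, Adra2c and Chrna9. Without them, 24 receptor genes held 61 sites, and Chrna9 had 7. The number depends on the library. With replicate 2 alone the mean per receptor gene was 3.79, beside 3.24 for all protein-coding genes, and with shared DHSs it was 1.21, beside 1.27.

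Distal DHSs, shared sites over 1 kb from any start of any gene, lay within 50 kb of a start of 47 receptor genes (88.7%), beside 81.2% of all protein-coding genes. The mean was 3.04 per receptor gene, beside 3.21 for all protein-coding genes. With replicate 2 alone it was 7.98, beside 7.35. Adra2c had 9, of which 1 is also counted as its promoter DHS, which leaves it 8. Chrna4 had 8, and Hrh1 and Chrna1 had 7 each. Adrb3, Hrh2, Chrnd and Chrng followed with 6 each. All 16 Chrn genes had at least 1, among them the 8 without a promoter peak, and their mean was 3.38. This was not particular to nicotinic genes. The other receptor genes without a promoter peak also had distal DHSs: 3 at Htr1d, 2 at Htr3b, 4 at Drd5 and 1 at Hrh4. The share among all protein-coding genes without a promoter peak was not computed.

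Nearness does not say which gene a site belongs to. The 161 distal DHSs counted over receptor genes are 152 distinct sites, and the nearest annotated start was that of a receptor gene for 67 of them and of another gene for 85. Of these sites, 7 were counted for 2 receptor genes. A further site, in the Chrna3 gene, was counted for Chrna3, Chrna5 and Chrnb4, with 1.10 in replicate 1 and 0.951 in replicate 2, and it was the only distal DHS within 50 kb of any of these 3 genes. The median signal of the distinct distal DHSs was 0.830, beside 0.709 for all 52908 distal shared DHSs.

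**Figure D4:**
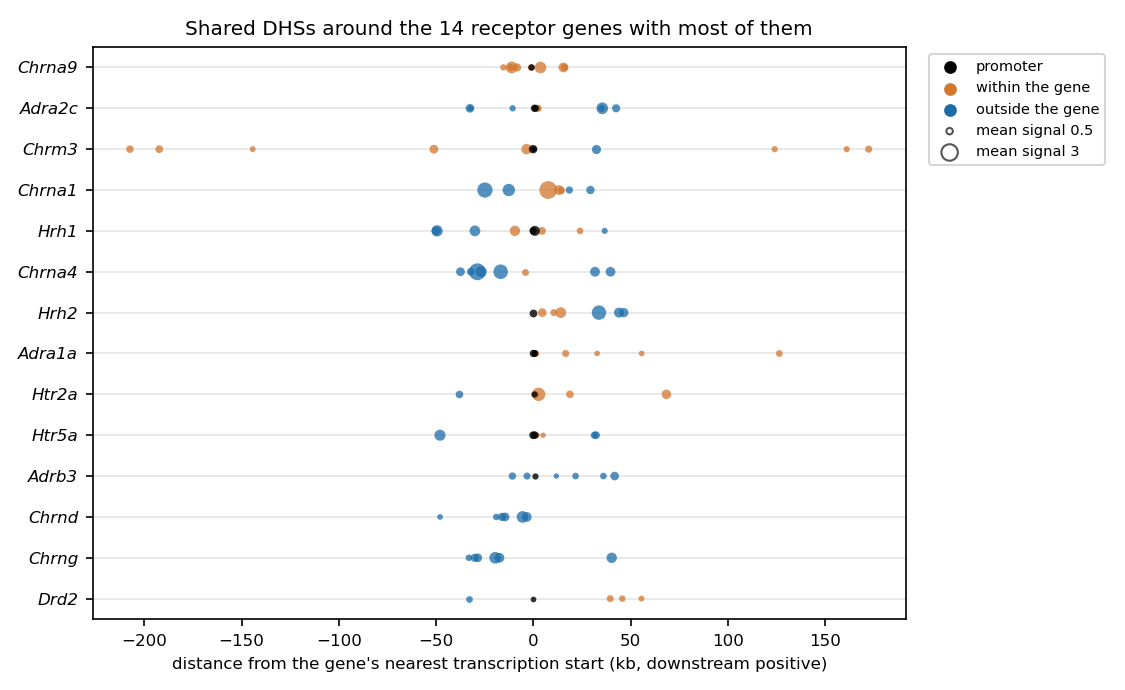
Shared DHSs around the 14 receptor genes with the highest sum of gene-body and distal counts, by distance from the nearest start of the gene (x axis, kb, downstream positive). A site can enter both counts, so these are not always the genes with the most distinct sites. Point area grows with mean signal; black points are promoter sites, orange points lie within the gene and blue points outside it. Chrna1, Chrna4, Chrnd and Chrng have sites but no black point.

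Of the 5 highest sites outside promoters, 3 lay near Chrna1 or Chrna4, which had no promoter peak. The highest was in an intron of Chrna1, 7637 bp downstream of its start, with 2.73 in replicate 1 and 4.09 in replicate 2. Another site 24923 bp upstream of Chrna1 had 2.10 and 3.17, and its nearest start is that of the non-coding gene Chn1os3. Near Chrna4, a site 28785 bp upstream had 3.93 and 2.30. A site 10671 bp upstream of Htr6 had 3.66 and 2.19 and lay nearer to Nbl1. A site 30032 bp downstream of the Chrm4 start had 2.03 and 3.53 and lay nearer to Dgkz. The libraries did not rank these sites alike: the sites near Chrna1 and Chrm4 were higher in replicate 2, and those near Chrna4 and Htr6 in replicate 1.

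Reading of the printed sequences showed stretches like the binding site of CTCF, a zinc finger protein that anchors chromatin loops. A CTCF core of 13 positions with at most 1 mismatch was therefore searched on both strands, a search added after the data were seen. The window was the 300 bp around the midpoint of each shared DHS. It reaches past narrower sites, and a match anywhere in it is counted for the site. The core was found in 7 of the 44 shared promoter DHSs of receptor genes (15.9%), beside 8.64% of 23054 shared promoter DHSs of protein-coding genes. The 7 belong to Adra1b, Adra2a (2 sites), Adra2b, Chrm1, Chrm4 and Drd1. Their median signal was 1.47, beside 0.645 for the 37 receptor promoter DHSs without a match. Over all promoter DHSs the medians were 1.41 with a match and 1.16 without. The search was prompted by sites printed for being the highest, among them those of Drd1, Adra2b and Chrm4, so this difference in signal is no independent observation. Without the printed sites, 4 of 37 promoter DHSs held the core (10.8%), with a median signal of 1.20, and the 33 without a match had 0.620. The matches in the printed Drd1, Adra2b and Chrm4 sites overlap a footprint in both libraries.

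Outside promoters, 54 of 171 shared DHSs of receptor genes held the core (31.6%), beside 25.0% of 52908 distal DHSs. Their median signal was 1.06 with a match and 0.712 without, beside 1.01 and 0.643 over all distal DHSs. Of the 10 highest of these sites of receptor genes 7 held it, the printed Chrna1 and Chrna4 sites that prompted the search among them. Without these, 52 of 169 sites held it (30.8%), with medians of 1.04 with a match and 0.712 without. In the same top share of all distal DHSs 54.3% held it. A match is a string of letters, not a measured binding event.

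**Figure D5:**
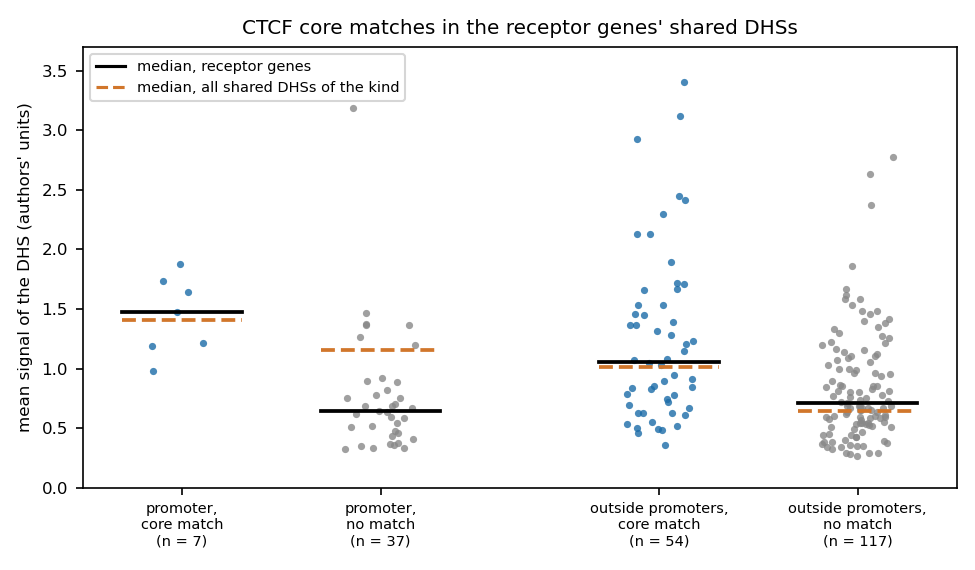
Mean signal (y axis, authors' units) of the receptor genes' shared DHSs with and without a CTCF core match, in promoters and outside them; each point is a DHS, and n is printed under each column. Black lines are medians of the receptor genes' DHSs (1.47 and 0.645 in promoters, 1.06 and 0.712 outside), and dashed lines those of all shared DHSs of the kind.

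Other motifs were searched in the same windows and on both strands. The site of REST, a repressor of neuronal genes in non-neuronal cells, was searched as TTCAGCACC and GGACAGNGC with 2 bases between them and at most 3 mismatches. It was found in 2 of 44 promoter DHSs of receptor genes (4.55%), beside 0.416% of all promoter DHSs. Outside promoters it was found in 1 of 171 DHSs (0.585%), beside 0.234% of all distal DHSs. Counts of 2 and 1 are too few to read as a difference from the background. The Chrnb2 match, at chr3:89764455-89764474 (minus strand) in an annotated UTR, had no mismatch and overlapped a footprint of replicate 1. That of Htr1a, within chr13:105442766-105442825, had 1 mismatch and lay on the strand opposite to the gene. That of Chrm4, within chr2:91921956-91922015, had 3 mismatches, was also on the opposite strand and lay in the DHS beside the RefSeq start. Neither overlapped a footprint. The matches are shown on the strand of the gene, in capitals, with 20 bases on either side for Htr1a and Chrm4.
Chrnb2: TTCAGCACCACGGACAGCGC
Htr1a: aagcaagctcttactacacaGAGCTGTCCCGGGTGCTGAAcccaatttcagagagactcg
Chrm4: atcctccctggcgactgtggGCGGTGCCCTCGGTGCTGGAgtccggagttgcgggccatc

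The remaining motifs gave counts close to the background or too few to read. The SP/KLF letters GGGGCGGGG were in 3 of 44 promoter DHSs of receptor genes (6.82%), beside 15.1% of all promoter DHSs. The E-box CAGATG was in 44 of 171 DHSs outside promoters (25.7%), beside 31.5% of all distal DHSs, and the AP-1 letters TGAGTCA in 20 (11.7%), beside 9.12%. The RFX letters GTTGCCATG were in 7 (4.09%), beside 2.07%. No promoter DHS of a receptor gene held the letters of CRE (TGACGTCA), EGR (GCGTGGGCG), NRF1 (GCGCATGCG), RFX or MEF2 (CTATTTATA), each found in at most 2.52% of all promoter DHSs. The short CTCF letters AGGGGGCGC, which overlap the longer core, were in 2 of 44 (4.55%), beside 2.62%.

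Of 49 other genes of monoamine and acetylcholine signalling, 37 had a promoter DHS in both libraries, a state found at 62.7% of all protein-coding genes, and 6 had none in either. Of the genes that act downstream of the receptors, 8 of 8 G protein and 13 of 13 effector and desensitisation genes had one. Their signals were mostly below the median of accessible protein-coding genes, 2.33: this held for 6 of the 8 G protein and 10 of the 13 effector and desensitisation genes. Gna11, a Gq-class α subunit, had 6.65 in replicate 1 and 7.08 in replicate 2, and Gnas, the Gs α subunit, had 2.05 and 3.55. The receptor-uncoupling arrestin Arrb2 had 5.09 and 5.36, and Rgs2, which shortens G protein signals, had 5.09 and 3.75. The lowest mean signal of the 8 G protein genes, 1.32, exceeded the mean signal of 22 of the 32 accessible receptor genes.

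The genes that make and carry the transmitters had fewer accessible promoters. Of 8 synthesis genes, 3 had a promoter DHS in both libraries, led by Dbh, which makes noradrenaline (1.04 and 1.05), and Tph2, which makes brain serotonin (0.809 and 1.00). Th, Pnmt and Chat had none. Of 9 transporter genes 3 had one, and Slc6a2, Slc6a3 and Slc18a3, the carriers of noradrenaline, dopamine and vesicular acetylcholine, had none. The highest, Slc18a1 (5.69 and 5.34), rests on a peak 35 bp from the start of its neighbour Atp6v1b2 and 528 bp from its own. Slc29a4, which takes up monoamines, had 1.33 and 1.71.

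Of 6 breakdown genes, 5 had a promoter DHS in both libraries, led by Ache, which splits acetylcholine (2.87 in replicate 1 and 2.90 in replicate 2). All 5 nicotinic chaperones and modulators had one, led by Ric3, which assists nicotinic receptor assembly (1.88 and 1.29), and Lypd6 (1.19 and 0.901). The nicotinic subunit genes themselves had 4 of 16.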

How the data were processed

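DNase-seq was analysed in 1 group of 2 libraries from left cerebral cortex. Per the labels, the assembly is mm10; the aligner and the callers of peaks and footprints are named in no source used here. For each library the authors deposited a larger and a smaller peak list, with a signal for each peak and no stated unit. The signal rises in steps of 0.00771 in replicate 1 and 0.00498 in replicate 2, the factor behind the step is not stated, and depth is unknown. The deposited false discovery rates (q-values) of the local cleavage rate reached 0.0500 in replicate 1 and 0.0499 in replicate 2. The deposited footprints carry the constant 0.01 and were only counted. All peaks fell within the chromosome lengths of GRCm38.p6.

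From these, the larger peak list was used. A shared DHS is a merged region with a peak of each library (overlap of at least 1 bp), its signal in a library the highest peak there. Distal and gene-body sites were placed by midpoint and may lie in introns of the same gene under both names. Footprints had to lie inside a peak of their library. CpG ratios and motif windows used the GRCm38.p6 sequence; starts came from GENCODE M21. The interval and motif functions were tested on simulated data and were right in 100% of 300 promoter, gene-body, distal and footprint cases each. Python 3.11.15, NumPy 2.4.6, pandas 2.3.3 and Matplotlib 3.10.9 were used.

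The rule for named genes took the 3 highest promoters per family, all genes with a promoter peak in 1 or no library, the 5 with most gene-body or distal DHSs and the 5 highest sites outside promoters. Of the 49 other pathway genes it took the 2 highest per class and those with no peak. Genes, lists and rules were chosen with earlier results of these data known. With 1 group there is no test and no p-value between groups, and nothing beyond the labels shows how separate the 2 animals' samples were. The alternatives were the stricter list, lists cut to equal numbers of peaks, each library alone, windows of 500 bp and 2 kb, the most 5′ start, an overlap of 50% and distances of 20 and 100 kb. A few items that these rules pick are not reported here.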

Additional observations from a re-analysis of the deposited data

How the results depend on the processing

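Under the alternatives, the number of receptor genes with a promoter DHS in both libraries lay between 23 and 32, and was 35 with replicate 1 alone and 38 with replicate 2 alone. As a share of receptor genes it was 43.4% with the stricter list (57.2% of all protein-coding genes), 50.9% with equal numbers of peaks (59.6%) and 49.1% with the window of 500 bp (60.8%), below genes at large in each. It was also below with the window of 2 kb, 60.4% (65.2%), and the most 5′ start, 54.7% (57.6%). It was above genes at large with replicate 1 alone, 66.0% (63.6%), and with replicate 2 alone, 71.7% (67.8%). The median signal of the accessible receptor genes stayed below that of all accessible protein-coding genes in each alternative. With the stricter list the median was 1.19, with equal numbers of the highest peaks 0.900, with a window of 500 bp 0.719, with replicate 1 alone 0.748 and with replicate 2 alone 0.662. Receptor genes without a promoter peak but with a segment of low false discovery rate in both libraries numbered 0 in the main setting. They numbered 5 with the stricter list, 2 with equal numbers and 1 with the 500 bp window. With replicate 1 alone they were 4 and with replicate 2 alone 1, where peak and segment were judged in that library only. No share of all protein-coding genes stands beside these alternatives, so the counts are not read as a result about the receptor genes. With the stricter list, promoters counted were 5 of Htr, 1 of Drd and 1 of Hrh, and with equal numbers 1 of Drd. They were 2 of Drd and 5 of Chrn with replicate 1 alone, and 4 of Drd and 7 of Chrn with replicate 2 alone. The window of 500 bp lost Adra2b, Adra2c, Adrb3, Chrm4, Chrna9 and Htr1f, and the most 5′ start alone lost Adra1b, Adrb3 and Chrna9.

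Gene-body DHSs per receptor gene averaged 0.585 with the stricter list (0.677 for all protein-coding genes), 1.36 with replicate 1 alone (1.43) and 3.79 with replicate 2 alone (3.24). Distal DHSs averaged 1.75 with the stricter list (1.90), 1.51 within 20 kb (1.46), 6.02 within 100 kb (6.00), 3.43 with replicate 1 alone (3.57) and 7.98 with replicate 2 alone (7.35). The cause of these shifts was not tested, apart from the smaller windows and lists, which hold fewer peaks by construction. Depth is unknown, so an absent peak does not show closed chromatin. No paired analysis was possible because there is only 1 group.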
